A study of Homo sapiens with 8 samples.

Results

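In PC-3 cells, an established human prostate cancer line, 557 peaks of Pbx4 were at least 1000 bp wide and overlapped no peak of HoxC5. They are 0.363% of the 153551 Pbx4 peaks on chromosomes 1 to 22 and X. Peaks were chosen by width (end minus start) and by the lack of an overlap of 1 bp or more with any peak of 3 HoxC5 lists. The Pbx4 list came from 1 library, an anti-Pbx4 ChIP of PC-3 cells that overexpressed Flag-tagged Pbx4 from a lentivirus. The HoxC5 lists came from 2 libraries of control PC-3 cells (endogenous replicates 1 and 2) and 1 library of Hoxc5-overexpressing PC-3 cells. The 4 input libraries were not used here. Every Pbx4 value thus comes from 1 library of cells with raised Pbx4, with no replicate, and no list was made of Pbx4 at its natural level. The 4 lists held 223511 peaks and no read totals, so the depth behind each value is unknown.

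Pbx proteins are homeodomain proteins of the TALE class that bind DNA together with Hox proteins, and often with Meis or Prep proteins as a further partner. A Hox-Pbx pair reads a composite word such as TGATTGAT, and Meis proteins read TGACAG. AP-1, the dimer of Fos and Jun proteins, and TEAD, the DNA-binding partner of YAP, are bound at many enhancers of epithelial cancer cells. In ChIP-Seq, a peak at a single bound site is narrow, and a wide one can hold several bound sites or a longer stretch of bound or repeated sequence.

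The wide Pbx4-only regions included 12 that are called tandem arrays here, in which much of the sequence is repeated within the region. A region was called an array where at least 30% of its 24-letter stretches occurred again inside it, a threshold set after the values were seen. The rule did not require the copies to lie head to tail. Set against itself at a shift of its repeat length, an array had the same base at 42.2 to 77.1% of positions. The arrays had 33.9% or more, the other regions 16.7% or less, and 499 of the 557 regions had no repeated stretch. The arrays were 2.15% of the regions (95% Clopper-Pearson interval 1.12 to 3.73%, which covers counting error only, as do all intervals given here). Among the 1962 wide Pbx4 peaks that overlapped HoxC5, 2 were arrays (0.102%, interval 0.0123 to 0.368%). Among every 20th Pbx4-only peak under 1 kb, 4 of 5449 were (0.0734%), although these peaks are shorter and have less room for a repeat. Of equal lengths of sequence beside the 557 regions, 1 was. No test was made between these classes.

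Arrays were among the widest regions and those of highest fold. Of the 5 regions of 2 kb or more, 4 were arrays, against 0 of 37 among the wide shared peaks of that width. Of the 10 regions of highest fold enrichment, 4 were arrays, against 0 of the 10 wide shared peaks of highest fold. The bases up to 50 bp from the summits of these 4 arrays in hg19 (plus strand) are shown because they carry the repeat itself, with TGACTGA or TGAGTGA, read on either strand, in capitals.
chr21:47234698-47234798: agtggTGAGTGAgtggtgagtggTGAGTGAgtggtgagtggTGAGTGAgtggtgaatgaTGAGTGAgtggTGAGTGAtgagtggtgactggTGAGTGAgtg
chr17:80218378-80218478: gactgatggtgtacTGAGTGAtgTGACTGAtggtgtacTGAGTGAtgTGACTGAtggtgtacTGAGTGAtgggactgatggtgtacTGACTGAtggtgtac
chr2:95702470-95702570: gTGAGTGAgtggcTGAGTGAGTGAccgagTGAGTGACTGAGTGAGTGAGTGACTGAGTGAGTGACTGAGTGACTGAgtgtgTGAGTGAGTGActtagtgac
chr2:242559897-242559997: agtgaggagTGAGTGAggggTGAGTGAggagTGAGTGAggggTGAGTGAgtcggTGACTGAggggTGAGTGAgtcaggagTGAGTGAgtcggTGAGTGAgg

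The region on chromosome 21, chr21:47234086-47236191, lies in an intron of PCBP3, a gene for an RNA-binding protein. It was 2106 bp wide, and its fold enrichment of 54.2 was the highest of all Pbx4 peaks. Its unit gtgagtg occurred 225 times and TGACTGA or TGAGTGA 134 times, overlapping matches included. The region on chromosome 17, chr17:80217730-80218861, lies inside CSNK1D, a casein kinase gene, and SLC16A3, a lactate transporter gene. It had a fold of 30.5, a repeat of 24 bp and 70 matches of TGACTGA or TGAGTGA. The widest region of all, chr2:95702227-95705561, spans 3335 bp in an intron of MAL, a gene for a membrane protein of lipid rafts. It had a fold of 25.6 and held the unit gtga 476 times and TGACTGA or TGAGTGA 547 times. The other array on chromosome 2, chr2:242558958-242560337 in an intron of THAP4, had a fold of 23.6 and 74 matches. These 4 arrays were thus built of closely related letters, although they lie on 3 chromosomes.

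The word TGACTGA differs from the AP-1 word TGACTCA by C6G, and TGACTGAT from the Hox-Pbx word TGATTGAT by T4C, with positions counted from the 5′ end of the first word. TGACTGAT was not counted over whole regions, and the counts above pool TGACTGA with TGAGTGA. In the 4 stretches shown, TGACTGAT occurs only in that of chromosome 17, and that of chromosome 21 holds TGAGTGA only. The words TGATTGAT and TAATTA did not occur in these 4 arrays, while the 7-letter AP-1 words occurred 2, 0, 7 and 8 times in the order shown. TGACTGA or TGAGTGA also occurred outside the arrays. It was within 100 bp of the summit in 68 of the 545 other regions (12.5%, interval 9.82 to 15.5%) and in 45 of their flanking windows (8.26%). Among the wide shared peaks 12.2% of summits and 6.32% of flanks had it. In all, 8 regions held at least 10 matches (1.44%), 4 of them not arrays, against 1 of the 1962 wide shared peaks (0.0510%). Of those 4, chr4:7658909-7660082 held 86 matches and chr10:1540900-1542224 held 57, near the 74 and 70 of the arrays above, although 4.60 and 2.30% of their 24-letter stretches were repeated inside them. The remaining pair held 14 and 11. High counts of these words were thus not limited to the regions called arrays. The rule for arrays counts exact copies of 24 letters, so it can miss a repeat whose copies differ. Whether these regions hold such repeats was not tested. The word was chosen after the arrays were seen, so these values are a description.

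The other 8 arrays had other units and folds from 7.51 to 20.3. The region chr15:31137126-31139851, the second widest with 2726 bp, held the unit gaaat 193 times and 35 Meis words. The region chr7:157725026-157726436 had a repeat of 34 bp, shown because this region had the most AP-1 words: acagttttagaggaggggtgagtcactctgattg. It held 35 AP-1 words and 31 Meis words and had a fold of 7.51, the lowest of these 8 arrays. Whether the number of words goes with the fold was not tested. The region chr10:310105-311414 had a repeat of 59 bp and 17 AP-1 words. The arrays with the unit catc (chr10:105460921-105461948, in SH3PXD2A) and the unit gatg (chr22:37467920-37469121, in TMPRSS6) held none of the AP-1 or Meis words. Read on the other strand, catc is gatg. Reads from a repeat can be placed at more than 1 position, and the authors kept reads of mapping quality of at least 10. What part that has in these folds was not tested.

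Of the 10 regions of highest fold, the 6 that were not arrays had ordinary sequence, with 93.2 to 100% of their 24-letter stretches found once in the genome. The bases up to 50 bp from 3 of these summits (hg19, plus strand) are shown with those of the 13 words tested at summits that they hold in capitals (the Meis word in the first and second, the RUNX word in the third). The second also holds TGACTGA once, left in lower case.
chr6:152085186-152085286: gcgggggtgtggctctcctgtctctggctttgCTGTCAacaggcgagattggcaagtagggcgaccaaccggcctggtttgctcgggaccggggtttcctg
chr1:163054324-163054424: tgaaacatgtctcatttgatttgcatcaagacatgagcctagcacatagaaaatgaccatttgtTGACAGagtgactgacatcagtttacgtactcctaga
chr1:221885757-221885857: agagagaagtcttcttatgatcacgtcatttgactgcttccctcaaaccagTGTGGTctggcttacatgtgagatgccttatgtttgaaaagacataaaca

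The first, chr6:152084257-152085626, lies in an intron of ESR1, the gene for estrogen receptor alpha, 40.3 kb from the nearest annotated transcriptional start site (TSS). It was 1370 bp wide with a fold of 33.8, the second highest of the 557 and rank 8 of all Pbx4 peaks, and its nearest HoxC5 peak was 82.7 kb away. The second, chr1:163053413-163054629, lies between genes, 12438 bp from the TSS of RGS4, a regulator of G-protein signalling, and had a fold of 29.1. The third, chr1:221885458-221886485, has its summit 649 bp from the TSS of DUSP10, a MAP kinase phosphatase, and had a fold of 27.2. The remaining 3 were chr5:157297754-157298842 near CLINT1 with a fold of 25.9, chr5:9239152-9240180 in SEMA5A, a semaphorin gene, with 25.1, and chr17:60858440-60859650 in MARCHF10, a ubiquitin ligase gene, with 24.5. Their fold range of 24.5 to 33.8 lies within that of the 4 arrays.

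**Figure D1:**
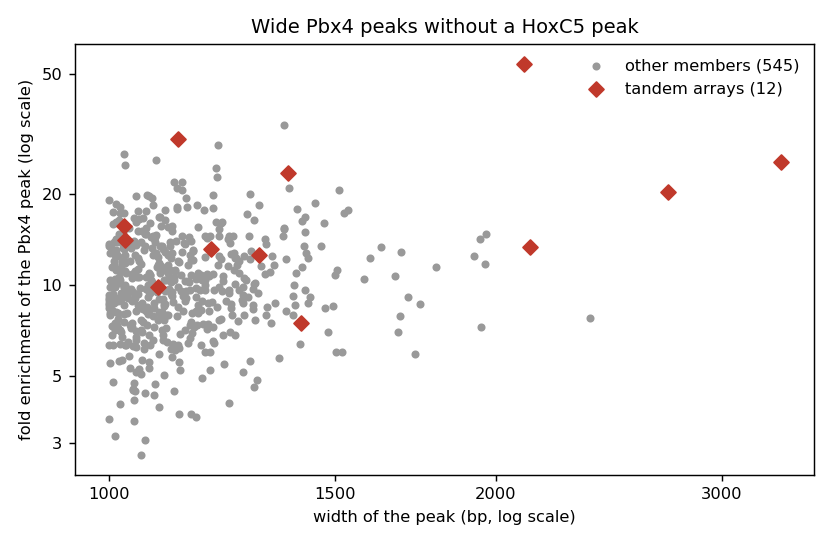
Width of each of the 557 regions in bp (x axis, log scale) against the fold enrichment of its Pbx4 peak (y axis, log scale). Each point is 1 region, with the 12 tandem arrays as red diamonds; 4 of the 5 regions of 2 kb or more are arrays, and the highest point, at a fold of 54.2, is one.

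The selection itself was steep. Of the 2519 Pbx4 peaks of 1 kb or more, 22.1% had no HoxC5 peak, against 72.2% of the peaks under 1 kb and 71.3% of all Pbx4 peaks. The share fell further with width, from 26.8% at 1000 to 1199 bp to 17.1% at 1200 to 1499 bp and 9.57% at 1500 to 1999 bp, and was 11.9% (5 of 42) beyond. Most wide Pbx4 peaks were near the lower limit, 1505 of the 2519 under 1200 bp, and so were most of the 557 regions, with 403 under 1200 bp, 127 from 1200 to 1499 bp, 22 from 1500 to 1999 bp and 5 wider, and a median of 1107 bp. Their median fold enrichment was 10.2 (range 2.74 to 54.2) and their median −log10 q 23.7. The median fold was 11.0 in the wide shared peaks and 5.89 in the Pbx4-only peaks under 1 kb. The 5 regions of lowest width, of 1000 or 1001 bp, had folds of 6.36 to 13.7, and the 5 listed peaks of 999 bp without HoxC5, just outside, had 6.38 to 11.3. These values follow from the rule and are a description. The overexpressed HoxC5 list decided the membership: without it, 2348 wide peaks had no HoxC5 peak, while without endogenous replicate 1 there were 560 and without replicate 2 there were 557.

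Most regions were made of sequence that occurs once in the genome. A median of 98.8% of a region's 24-letter stretches were unique in hg19, against 91.3% in an equal length beside it. Stretches with 10 or more copies made up a mean of 3.31% of a region and 10.6% of the flank. The authors kept reads of mapping quality of at least 10, which makes a peak in repeated sequence harder to call. The flanks were under no such limit, and what part this has in the differences was not tested. In the wide shared peaks the mean was 2.48% against a flank of 10.4%, so low repeat content was not particular to the Pbx4-only regions. In 16 regions (2.87%, interval 1.65 to 4.62%) fewer than 50% of the stretches were unique. Of these, 8 were arrays, and the other 8 were stretches with further copies elsewhere in the genome. Of the wide shared peaks, 15 (0.765%) were this repetitive. Among every 20th Pbx4-only peak under 1 kb, 198 of 5449 were (3.63%, interval 3.15 to 4.17%). The share in the wide Pbx4-only regions was thus not above that of the narrow ones.

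AP-1 words were frequent at the summits. Both strands were searched up to 100 bp from each summit and, for comparison, in a window of the same size centred 1 kb outside the right edge of the same peak. TGACTCA or TGAGTCA was at 148 of the 557 summits (26.6%, interval 22.9 to 30.4%) and in 21 flanking windows (3.77%; two-sided exact McNemar test, p adjusted over the 13 words by the Benjamini-Hochberg method, adjusted p = 1.46e-25). The TEAD word GGAATG was at 20.5 and 11.5% (exact McNemar adjusted p = 0.000277). The RUNX word TGTGGT, read by a family of blood and bone regulators, was at 18.0 and 9.69% (exact McNemar adjusted p = 0.000322). For Meis, TGACAG was at 19.2 and 12.9% (exact McNemar adjusted p = 0.0134). These tests compare the regions of 1 library with their own flanks. The 13 words were chosen with earlier results of these data known, so the tests are not independent of them. With the flank to the left, the exact McNemar adjusted p was 0.0975 for the Meis word and 0.156 for the RUNX word, so that both calls rest on the flank chosen. The Meis word was also not called within 200 bp (exact McNemar adjusted p = 0.149), nor were Meis and RUNX over whole regions (0.296 and 0.0551).

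The Sp/KLF word CCCGCC, found in many CpG-rich promoters, went the other way, with 1.44% of summits and 6.10% of flanks (exact McNemar adjusted p = 0.000298). The composite Hox-Pbx words were rare: TGATTGAT was in 4 summit and 4 flanking windows (0.718% each, exact McNemar adjusted p = 1) and TGATTAAT in 7 and 4 (exact McNemar adjusted p = 0.649). The Hox word TAATTA was at 3.41 and 6.10% (exact McNemar adjusted p = 0.0962, but 0.0408 within 200 bp, 0.0376 with the flank to the left and 0.0061 over whole regions, each lower in the regions), TAATGA at 12.03 and 11.3% (adjusted p = 0.844) and the forkhead word TGTTTAC at 5.21 and 2.87% (adjusted p = 0.118). The E-box words CAGATG (18.7 and 14.2%, exact McNemar adjusted p = 0.0966) and CACGTG (2.51 and 1.26%, adjusted p = 0.273) and the ETS word CCGGAA (0.898 and 1.62%, adjusted p = 0.504) also missed the threshold of 0.05, although CAGATG passed it with the flank to the left (adjusted p = 0.000544), within 50 bp (0.0458), within 200 bp (0.0408) and over whole regions (0.00267). In all, 116 regions (20.8%) held none of the 13 words at the summit.

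**Figure D2:**
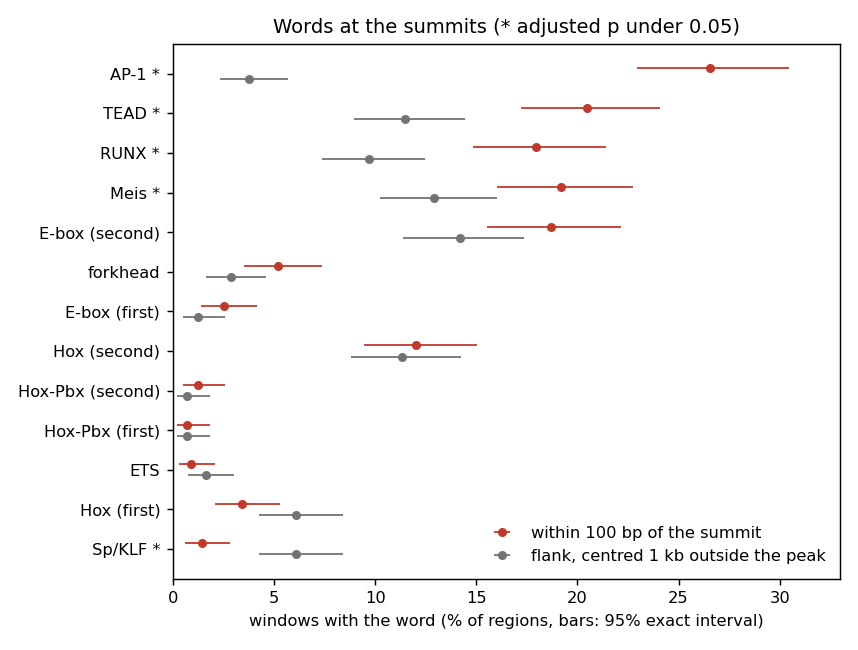
Share of the 557 regions with each word within 100 bp of the summit (red) and in the flank of the same peak (grey), in percent, with 95% exact Clopper-Pearson intervals; a star marks an adjusted p under 0.05. The AP-1 word is at 26.6% of summits and 3.77% of flanks, and Sp/KLF is the starred word that is lower at the summit.

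The wide shared peaks had the AP-1 word at 36.4% of summits (interval 34.3 to 38.6%) and the narrow Pbx4-only peaks at 25.5% (25.3 to 25.8%), so that the regions, at 26.6%, were close to the narrow class. Their flanks held it in 3.67 and 3.65% of windows. TEAD was at 21.7 and 19.3% of summits in these classes, and Meis at 19.2 and 18.1%. RUNX was at 18.1 and 16.6% of their summits and at 13.4% of the flanks of each. The Sp/KLF word was at 2.91 and 2.30% of their summits and 5.56 and 5.15% of their flanks. Neither direction was thus particular to the wide Pbx4-only regions. No test was made between the classes. Over whole regions, the AP-1 word occurred 514 times, 0.790 per kb, against 111 times and 0.171 per kb in equal lengths beside them. Arrays held 69 of the 514 matches, and without them there were 0.706 per kb. Of the 557 regions, 317 (56.9%) held at least 1 AP-1 word and 18.1% held at least 2, while 368 (66.1%) held a TEAD word. Of the equal lengths beside them, 17.4% held an AP-1 word and 46.7% a TEAD word. Of the wide shared peaks, 68.7% held an AP-1 word and 66.0% a TEAD word, so neither share was particular to the regions.

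AP-1 words were most frequent beside the summit and not spread evenly along the region. In steps of 100 bp, AP-1 words occurred at 1.47 and 1.53 per kb on either side of the summit, at 0.700 and 0.539 per kb in the next steps, and between 0.323 and 0.575 per kb from there to 600 bp. In the wide shared peaks the steps at the summit had 2.14 and 2.07 per kb. TEAD words reached 1.15 and 1.17 per kb at the summit, and Meis words 1.11 and 1.10. The summit did not lie in the middle of the region as often as in narrow peaks: the middle 50% of regions had it between 0.251 and 0.723 of the way along, against 0.395 and 0.582 in narrow Pbx4-only peaks. The wide shared peaks had 0.262 and 0.718.

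**Figure D3:**
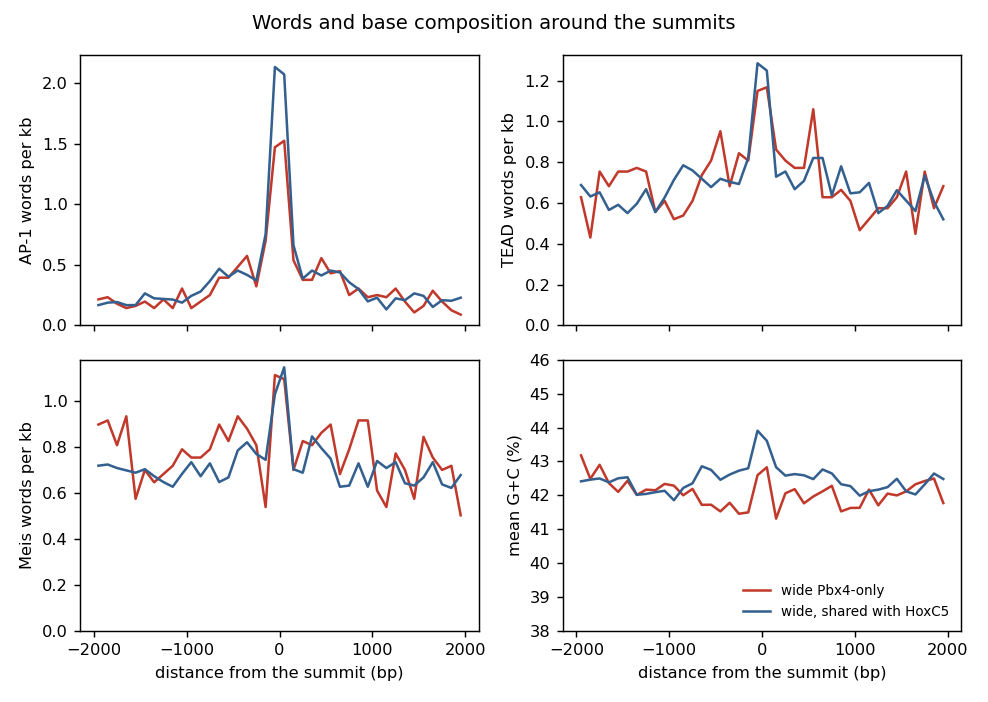
AP-1, TEAD and Meis words per kb and mean G+C in percent (an axis that does not start at 0), in steps of 100 bp up to 2 kb on either side of the summit, for the 557 regions (red) and the 1962 wide shared peaks (blue). Each word has its highest values in the 2 steps next to the summit, with AP-1 at 1.47 and 1.53 per kb in the regions and 2.14 and 2.07 in the shared peaks.

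The G+C content of the regions was close to that of their flanks, while CpG-island-like sequence was rarer. In 500 bp around the summit the median G+C was 41.8%, against 41.2% in the flank, and 287 summits were higher and 263 lower (two-sided exact sign test, p = 0.327). Over whole regions, 243 had 40 to 45% G+C, 179 had 35 to 40%, 33 had 50 to 60% and none had more. CpG dinucleotides were depleted, with a median ratio of observed to expected of 0.153 at the summit and 0.189 in the flank. Of the summit windows, 1 (0.180%) had the G+C of at least 50% and the ratio of at least 0.6 that mark a CpG island, against 10 flanking windows (1.80%; two-sided exact McNemar test, p = 0.0117). That 1 region, chr2:241137030-241138058, is a tandem array with the unit ctgtccatca, 53.3 kb from the nearest protein-coding TSS. Among the wide shared peaks 25 summits (1.27%) were CpG-island-like, and among the narrow Pbx4-only peaks 0.632%, against 2.09 and 1.97% of their flanks. The median CpG ratio at the summit was 0.181 and 0.154 in these classes. A lower share at the summit than in the flank was thus not particular to the wide Pbx4-only regions. Of the 33 regions within 1 kb of a protein-coding TSS, none was CpG-island-like at the summit, and their median G+C was 44.4%.

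The regions lay mostly away from promoters. By summit, 59 (10.6%, interval 8.16 to 13.5%) were within 1 kb of an annotated TSS, against 14.7% (13.1 to 16.3%) of the wide shared and 10.1% (9.94 to 10.3%) of the narrow Pbx4-only peaks. A further 128 (22.98%) were 1 to 5 kb away, 274 (49.2%) were over 10 kb away, and the median distance was 9758 bp. An intron held 339 summits (60.9%), an exon 36 (6.46%), and 182 (32.7%) lay between genes. A protein-coding gene held 263 (47.2%), against 47.5% of wide shared and 52.0% of narrow Pbx4-only peaks. A gene for a long non-coding RNA, and no protein-coding gene, held 110 (19.7%, interval 16.5 to 23.3%), against 18.5 and 14.6%. These annotations are from GENCODE on GRCh37. With protein-coding TSSs only, 5.92% were within 1 kb.

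Of the regions near protein-coding promoters, the 5 of highest fold had their summits 649 bp from the TSS of DUSP10 (fold 27.2), 148 bp from DNASE1L3 (20.6), a nuclease gene, 158 bp from C9orf131 (19.7), 60 bp from PLA2G6 (17.8), a phospholipase gene, and 944 bp from DDX47 (17.3), an RNA helicase gene. The region at PLA2G6, chr22:38575686-38577221, was 1536 bp wide. These 5 were chosen after their values were seen. Over all 33, folds ranged from 5.15 to 27.2 with a median of 9.41, and widths reached 1686 bp.

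Regions fell on chromosomes unevenly. Chromosome 8 had 55 of the 557 (9.87%, interval 7.53 to 12.7%) on 5.04% of the known sequence, 0.385 per Mb against 0.196 over all chromosomes, a ratio of 1.96. Chromosome 20 had 0.353 per Mb, chromosome 1 had 0.320 with 72 regions, chromosome 21 had 0.313, chromosome 2 had 0.285 with 68 and chromosome 11 had 0.282. The lowest densities were on X with 0.0794, chromosome 9 with 0.0999 and chromosome 18 with 0.107. Per Pbx4 peak, chromosome 8 was also highest, with 0.636% of its 8642 peaks (interval 0.480 to 0.828%) against 0.363% over all. The wide shared peaks had 1.88 times their overall density on chromosome 8 and 1.95 times on chromosome 14, where the Pbx4-only regions had 1.33 times theirs. The number of copies of each chromosome in these cells was not measured here.

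**Figure D4:**
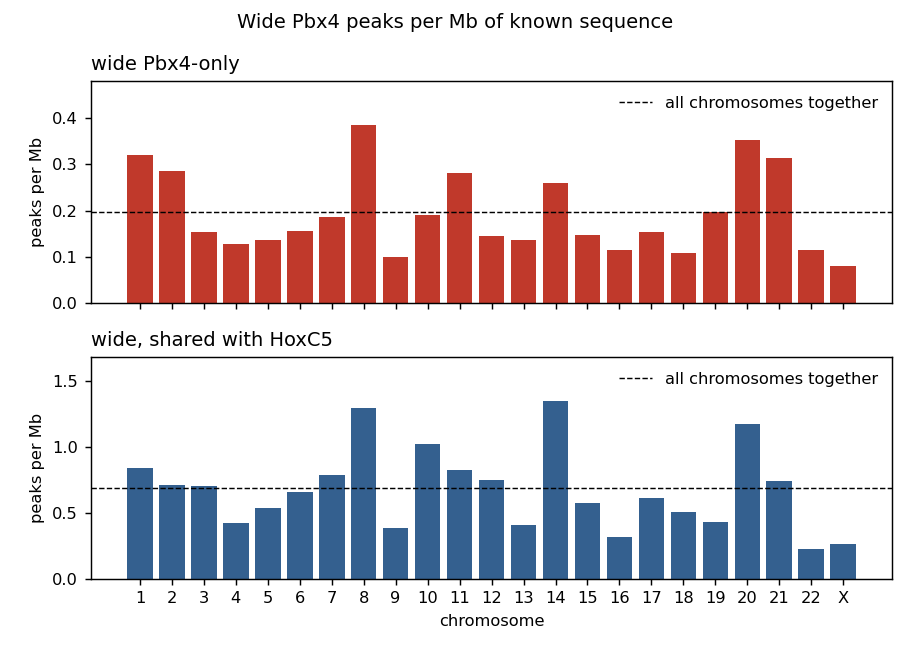
Peaks per Mb of known sequence on each chromosome for the 557 wide Pbx4-only regions (top, red) and the 1962 wide peaks shared with HoxC5 (bottom, blue), with the value over all chromosomes as a dashed line (0.196 and 0.692 per Mb). Chromosome 8 is the highest bar of the top panel at 0.385 per Mb.

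Within chromosome 8, 48 of the 55 regions lay beyond the longest run of unknown bases, 0.484 per Mb, where all Pbx4 peaks had 69.6 per Mb against 54.1 over all chromosomes. The same part of chromosome 1 had 45 regions and 0.429 per Mb. In bins of 1 Mb, 378 held 1 region, 65 held 2, 15 held 3 and 1 held 4. The fullest bin, from 124 to 125 Mb of chromosome 8, had 4 regions of 1128 to 1924 bp with folds of 10.1 to 14.995, nearest to ATAD2, FAM83A, FBXO32 and FER1L6. It also held 7 wide shared peaks among 153 Pbx4 peaks. The bins from 126 to 127, 128 to 129 and 131 to 132 Mb had 3 each, with folds of 3.08 to 15.8, 10.2 to 14.4 and 7.67 to 11.2. POU5F1B, a retrogene of the pluripotency factor OCT-4, was the nearest protein-coding gene of 4 regions, from 24.5 to 371 kb away, and ZNF91, a zinc-finger gene, of 3. Both were named after the counts were seen.

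Regions did not gather into long domains. The nearest other region was a median of 942 kb away, 14 (2.51%) had one within 10 kb, and 1 pair on chromosome 2, with TRIB2 as the nearest protein-coding gene at 139 and 140.3 kb, lay 185 bp apart. Other Pbx4 peaks were common nearby, with a median of 2 within 10 kb, the same as for narrow Pbx4-only peaks and against 3 for wide shared peaks. Within 1 Mb of a chromosome end lay 8 regions (1.44%, interval 0.622 to 2.81%), against 0.761% of all Pbx4 peaks. Among these 8 were the arrays chr2:242558958-242560337, chr10:310105-311414, chr17:80217730-80218861 and chr21:47234086-47236191. The nearest HoxC5 peak was a median of 8968 bp away, edge to edge, and 9704 bp for narrow Pbx4-only peaks. It was within 1 kb for 59 regions (10.6%) and within 10 kb for 298 (53.5%). As the absence of overlap was part of the rule, these distances are a description.

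Of 20090 protein-coding genes, 271 held the summit of a region (1.35%) and 376 had one inside or within 10 kb (1.87%). Long genes had more room for one: the median length was 144 kb for genes with a region inside and 27.3 kb for all. The share rose from 0.391% of genes under 50 kb to 10.2% of genes of 500 kb or more. No gene had 3, and 10 had 2, each summit in an intron. The 2 regions in ESR1 had folds of 33.8 and 6.38, with summits 107 and 431 kb from the start of the gene. RUNX1, a transcription factor of blood formation that reads the RUNX word, had 2 with folds of 8.89 and 9.27, and ALK, a receptor tyrosine kinase, 2 with 12.2 and 9.88. SGMS1, a sphingomyelin synthase, had 20.9 and 10.7, BCAR3, an adaptor of the Cas proteins, 10.5 and 12.8, and EGLN3, a prolyl hydroxylase of the oxygen response, 7.61 and 10.7. RGS5, a regulator of G-protein signalling, had 11.6 and 7.52, TANC1, a scaffold protein, 3.17 and 12.5, and EEPD1, a nuclease-domain protein, 9.33 and 7.24. RUNX1 also held 6 wide shared peaks among its 182 Pbx4 peaks, and ESR1 none among its 49.

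Gene lists were read against the 1.87% of all protein-coding genes with a region inside or within 10 kb. Of 23 genes of YAP, TEAD and their targets, 4 had one (17.4%, interval 4.95 to 38.8%). The median length of the 23 genes was 46.2 kb. Of the 4, CRIM1, PTPN14 and ASAP1 are long, with 195.4, 203.8 and 391.6 kb, while GADD45A has 3.13 kb. Among all genes of 100 to 200 kb, 3.10% held a region, and among those of 200 to 500 kb, 5.70% did. The lists were chosen with earlier results of these data known, and no test allowed for gene length, so this share is a description. In CRIM1, a transmembrane regulator of growth factors, the region chr2:36584921-36586027 lay 2.80 kb from the gene's start with a fold of 17.7. In PTPN14, a phosphatase that restrains YAP, chr1:214612657-214613803 had a fold of 10.3. At GADD45A, a stress-response gene, chr1:68148999-68150038 had 9.74 and lay 1.695 kb from the start. In ASAP1, a GTPase-activating protein, the region had 7.67. Wide shared peaks were within 10 kb of 8 of these 23 genes (34.8%) against 5.34% of all genes. Of 13 genes of the prostate lineage and androgen response, 1 had a region, KLK4, a kallikrein protease, with a fold of 17.6 at chr19:51399263-51400332. The summit of that region lay outside KLK4, 14.7 kb from the gene's start and 0.343 kb from the nearest annotated TSS.

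The other 9 lists had none. They held 11 AP-1 genes, 11 TALE cofactors, 39 HOX genes, 23 integrins and laminins, 13 regulators of epithelial-mesenchymal transition with cadherins, 12 EGF receptors and ligands, 18 TGF-β ligands, receptors and SMADs, 26 genes of actin and focal adhesion and 37 ribosomal protein genes. At 1.87%, fewer than 1 gene of each list would be counted, so a count of 0 does not set a list apart. The HOX genes and ribosomal protein genes are also short, with medians of 4.22 and 5.09 kb. Pbx4 peaks of any width were within 10 kb of 36 of the 39 HOX genes (92.3%) and all 11 TALE genes, against 81.5% of all protein-coding genes.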

How the data were processed

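The samples were ChIP-Seq libraries of PC-3 cells. Per the study's methods, the authors aligned reads by BWA-MEM to hg19, required a mapping quality of at least 10, discarded duplicates (SAMtools) and ran MACS2 on each library with a q-value limit of 0.05. The control of each call and the MACS2 version are not given in the sources used here. The deposited lists give each interval and its summit. The deposited fold enrichment is a ratio to the local background, and significance is deposited as −log10 p-value and −log10 q-value. The authors' lists also hold a score, which was not used. With no read totals in the lists, the precision that depth gives is unknown.

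Peaks were read as deposited, with starts counted from 1 in the text. Sequence was read from GRCh37 (hg19), and genes from GENCODE 44 lifted to it. Of the 25 YAP and TEAD symbols 23 matched, and the symbols of the other lists all matched. Words were compared between each summit and its own flank by a two-sided exact McNemar test, adjusted over the 13 words by the Benjamini-Hochberg method, and G+C by a two-sided exact sign test. Both were tested on simulated data. Other classes are described with shares and exact Clopper-Pearson intervals at 95%. The genome file does not mark repeats, so a planned measure of masked bases was replaced by the number of genome copies of each 24-letter stretch, on either strand. The regions named were the 10 widest, the 10 of highest fold, the 5 fullest 1 Mb bins, those nearest to 1000 bp, the arrays, genes with most regions and genes of the lists, except 1 gene and its bin, which are not reported here. Members, words and gene lists were chosen with earlier results of these data known. Computations used Python 3.11.15, NumPy 2.4.6, pandas 2.3.3, SciPy 1.17.1, pysam 0.24.0, numba 0.67.0 and matplotlib 3.10.9.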

Additional observations from a re-analysis of the deposited data

How the results depend on the processing

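The number of regions, 557, was 1927 at a width of at least 800 bp, 27 at 1500 bp and 5 at 2000 bp, and 2348 without the overexpressed HoxC5 list. It was 557 to 560 with either endogenous replicate left out, and from 526 to 821 under the 6 other alternatives. Of the 13 words, 5 passed the adjusted threshold and 5 or 6 did under the other alternatives, but 0 did with the 27 regions of at least 1500 bp, where fewer regions were tested. AP-1, TEAD and Sp/KLF kept their call under each alternative but that one. The difference between summit and flank changed sign for TAATGA within 200 bp (−0.180 points) and with the left flank (−0.898), for TAATTA and RUNX in the 27 widest (3.70 and −3.70), and for CCGGAA and CACGTG over whole regions (1.97 and −0.898), and none of these was called. The count of words over whole regions and the removal of the 12 arrays were added after the data were seen. The G+C difference was −2.00 points in the 27 widest (exact sign test, p = 0.442). The share near a TSS was 33.6% within 5 kb, 5.92% for protein-coding TSSs, 15.6% for any base of the region and 22.2% in the 27 widest. The fullest bin of 5 Mb held 10 regions. No paired analysis was possible because the Pbx4 list comes from 1 library and the input libraries, which share replicate numbers with the endogenous HoxC5 libraries, were not used.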
